A study of Mus musculus with 6 samples.

Results

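The platelet-derived growth factor (PDGF) ligands and receptors were examined in fibroblasts sorted from the synovium, the tissue that lines joints. The 7 genes are those that a rule on gene symbols gives, and were the 4 ligand genes Pdgfa, Pdgfb, Pdgfc and Pdgfd, the 2 receptor genes Pdgfra and Pdgfrb, and the receptor-like gene Pdgfrl. All 7 were among the 24348 genes of the count table and all 7 passed the filter on low counts, as did 19925 genes in all. All samples were labelled C57BL/6 and came from mice given either immune complexes (IC) or vehicle, the latter labelled control. The study's methods describe IC as ovalbumin coupled to rabbit antibodies against it and injected intravenously. Synovium was digested with collagenase, and fibroblasts were sorted from 3 IC and 3 vehicle samples for total RNA sequencing. The labels do not say whether a library came from 1 mouse or from pooled mice, so that p-values measure the spread between these samples, which may be technical. The study's methods give 1 age range, of adult mice, for its in vivo experiments. The time after injection and the markers of the sort are not given in the sources used here.

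PDGF ligands are secreted dimers that drive the growth, survival and migration of mesenchymal cells. PDGF-A and PDGF-B are cut by proprotein convertases inside the cell, whereas PDGF-C and PDGF-D carry a CUB domain that is removed outside the cell, by tissue plasminogen activator in the case of PDGF-C and by urokinase or matriptase in the case of PDGF-D. The ligands pair the receptor tyrosine kinases PDGFRα and PDGFRβ, which then signal through SRC kinases, PI3K, PLCγ and the RAS-MAPK cascade. PDGFRα is widely used to mark fibroblasts, and PDGFRβ is carried by fibroblasts and by the mural cells of vessels, which are recruited by PDGF-B from endothelium. Pdgfrl encodes a protein that resembles the ligand-binding part of the receptors and has no kinase domain.

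The libraries held 40114331 to 56714304 counts, and depth overlapped between groups. Fibroblast markers (10 genes, collagen and proteoglycan genes among them) summed to 45700 to 47700 counts scaled to a common library total (CPM) after IC and 47000 to 57000 CPM after vehicle. Endothelial markers (13 genes) summed to 227 to 315 and 310 to 373 CPM, and mural cell markers (10 genes) to 501 to 611 and 595 to 641 CPM. Macrophage markers (7 genes) stayed between 31.7 and 50.4 CPM over the 6 libraries, mostly from Cd68 (21.9 to 31.4) and Lyve1 (8.13 to 18.6). Cx3cr1, C1qb and C1qc did not pass the filter on low counts, and Adgre1, C1qa and Ptprc were not among the genes counted. Of the platelet markers in the table, Ppbp and Gp1bb did not pass the filter on low counts, whereas Itga2b had 28.7 to 34.7 CPM. Sums that did not overlap between groups were those of lining fibroblast markers (5 genes, 731 to 847 CPM after IC and 528 to 657 after vehicle), chondrocyte and tendon markers (8 genes, 1640 to 1900 and 952 to 1560 CPM) and satellite cell markers (6 genes, 33.2 to 66.0 and 79.7 to 129 CPM). Within the lining list DESeq2 called Prg4 higher (361 to 473 CPM after IC and 178 to 281 after vehicle). It called Clic5 and Tspan15 lower, with log2 fold changes of -0.68 and -0.90. Of 7 tested chondrocyte and tendon markers, 4 had log2 fold changes above 0 and 3 below. Acan was called higher among them (1.34), and Col2a1 had -0.75 and was not called. Both had few counts, and most of the sum came from Fmod and Comp, neither called. Fmod had 913 to 1090 CPM after IC and 491 to 903 after vehicle, and Comp 622 to 720 and 366 to 593. Skeletal muscle markers (10 genes) summed to 19.6 to 38.8 and 34.9 to 81.0 CPM, with a median log2 fold change of -2.22 over 9 tested genes. The part of these cell types in the values of the PDGF genes was not tested. In bulk samples fewer cells of a type and less RNA per cell cannot be told apart.

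The receptor genes were far more abundant than the ligand genes. Levels between genes were compared as CPM per kb of merged exon. Pdgfra had a mean level of 99.9 over the 6 libraries, from 90.8 to 110.0, and ranked 272 among 19602 tested genes with a length. Pdgfrb had a mean level of 79.8, from 73.9 to 83.2, and ranked 359. Both receptor genes thus stood within the top 2% of tested genes in level. Pdgfrl followed at 9.58 (8.34 to 11.0), then Pdgfd at 7.55 (6.45 to 9.07), Pdgfc at 4.66 (3.96 to 5.31) and Pdgfa at 4.16 (3.38 to 4.87). Pdgfb was lowest at 0.656 (0.346 to 0.910), at rank 14840. Each gene exceeded the next in all 6 libraries except Pdgfc, which exceeded Pdgfa in 4 of 6, so that this pair was not separated. With the longest annotated transcript as the length the order of the means was kept, but Pdgfd exceeded Pdgfc in 4 of 6 libraries and Pdgfc exceeded Pdgfa in 3 of 6.

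**Figure D1:**
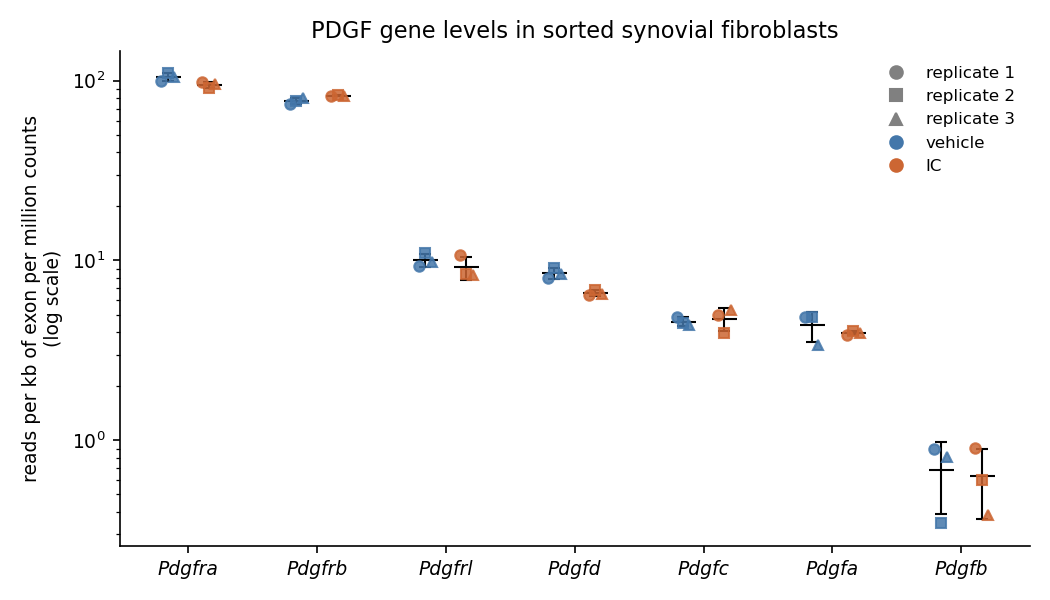
Level of each PDGF gene on a log axis, in CPM per kb of merged exon. Points are libraries, coloured by group and shaped by replicate number, and bars are the mean ± SD of 3 libraries. Both receptor genes lie between 73.9 and 110.0, and no ligand gene exceeds 9.07.

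Per kb of merged exon, Pdgfd made up the largest share of the summed ligand level, 41.5% ± 2.54 in the IC group against 46.9% ± 3.47 in the vehicle group (SD, n = 3 each). Pdgfc held 29.7% ± 3.74 and 25.3% ± 1.29, and Pdgfa 24.9% ± 1.17 and 24.0% ± 3.52, in the same order. Pdgfb, the ligand of vascular mural cells, held 3.95% ± 1.63 and 3.80% ± 1.70. The summed level of Pdgfra and Pdgfrb was 11.1 ± 0.110 times that of the ligands after IC and 10.1 ± 0.765 times after vehicle. Shares and sums depend on the length used. With the longest annotated transcript Pdgfd exceeded Pdgfc in 4 of 6 libraries, and shares were not computed with it.

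The question for each gene was whether its level differed after IC. None of the 7 genes was called at an adjusted p under 0.05 by DESeq2 or by the quasi-likelihood test of edgeR, against 2.10% (1.03% higher and 1.07% lower) and 0.186% of all 19925 tested genes. The DESeq2 shares also count 3870 genes that got no adjusted p and could not be called. With genes of mean 100 or more alone, as all 7 members were, DESeq2 called 413 of 13435 genes. At an unadjusted p under 0.05 DESeq2 passed 2 of the 7, Pdgfd and Pdgfra, both lower after IC, against 9.80% of tested genes in either direction and 4.88% lower. Values did not overlap between groups for 2 of the 7 (28.6%), Pdgfd and Pdgfrb, against 15.8% of tested genes, 7.67% lower and 8.09% higher. The log2 fold changes of 5 of the 7 genes were below 0, against 50.4% of tested genes, with a median of -0.14 over the 7 genes and of -0.0019 over all tested genes.

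**Figure D2:**
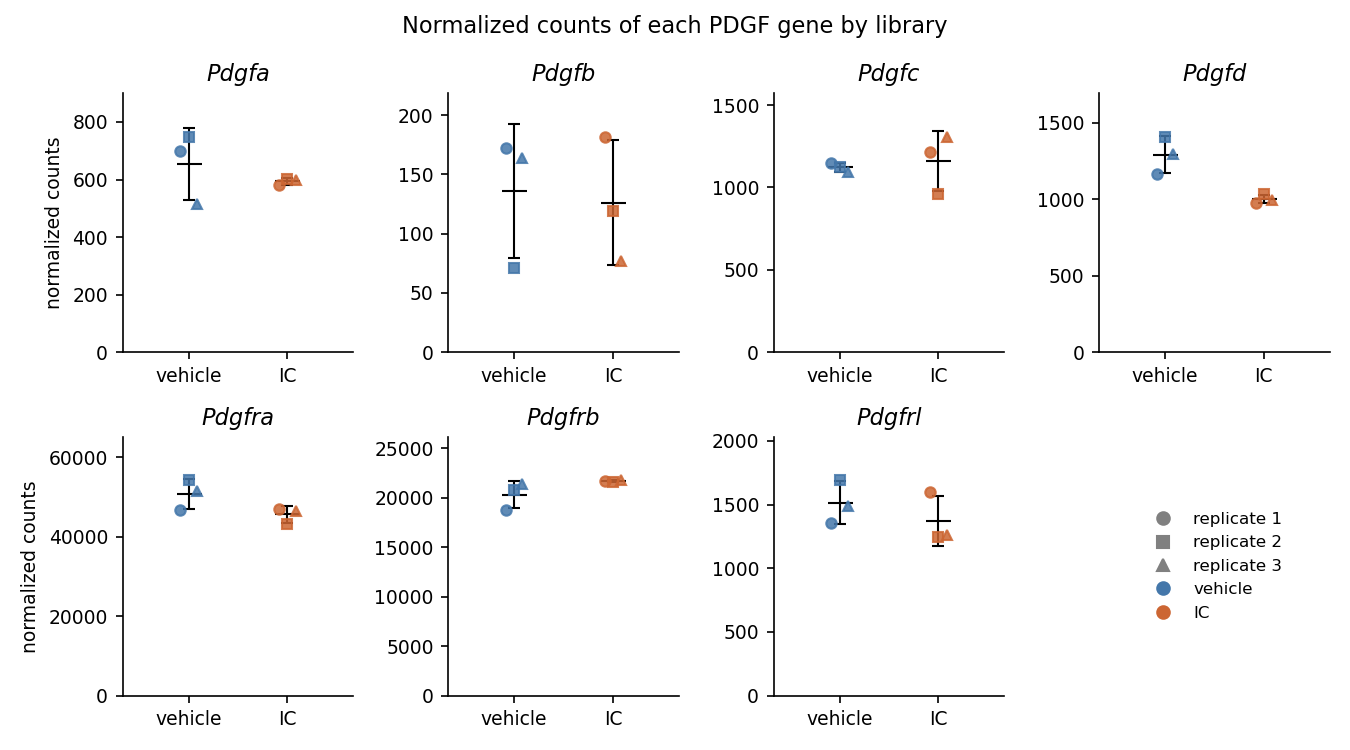
Normalized counts (counts divided by the size factor) of each PDGF gene in every library, on linear axes from 0. Bars are the mean ± SD of 3 libraries per group. Pdgfd and Pdgfrb are the genes whose groups do not overlap, and the range of Pdgfb is as wide within groups as between them.

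**Figure D3:**
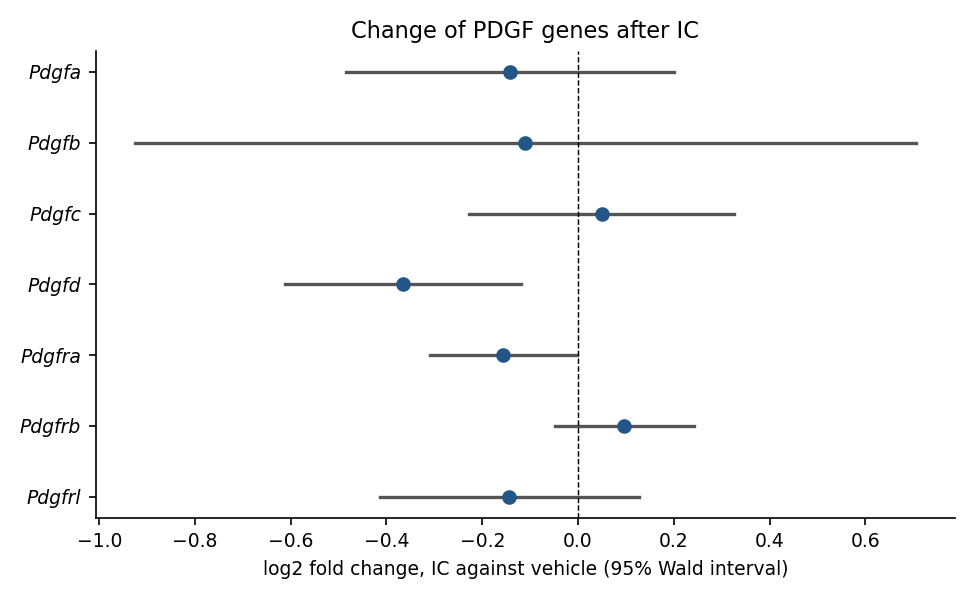
Log2 fold change of each PDGF gene, IC against vehicle, by DESeq2, with 95% Wald intervals as lines. The intervals of Pdgfd (-0.61 to -0.12) and Pdgfra (-0.31 to -0.0023) lie below 0 before adjustment for the genes tested, and that of Pdgfb is the widest.

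Pdgfd (ENSMUSG00000032006.15, chromosome 9, 6168584 to 6378850, plus strand, GRCm38) encodes the ligand that acts chiefly on PDGFRβ. It had 977.4, 1032 and 995.6 normalized counts in IC replicates 1, 2 and 3, and 1168, 1409 and 1294 in vehicle replicates 1, 2 and 3. Every IC value was below every vehicle value, with means of 1002 ± 27.5 and 1290.2 ± 121 (SD, n = 3 each). The log2 fold change was -0.37 ± 0.126 (SE), a change of -22.4% with a 95% interval of -34.5% to -7.89%. Its unadjusted DESeq2 p was 0.0037, the adjusted p was 0.101 with DESeq2 and 0.230 with edgeR, and Pdgfd was not called. Without vehicle replicate 1, which had the lowest of the 3 vehicle values, the log2 fold change was -0.43 and the adjusted p 0.0183, and the call passed. In that fit 677 genes were called, against 419 with all 6 libraries. In the other 5 fits that each left out 1 library the adjusted p of Pdgfd was 0.213 to 0.367.

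Pdgfra (ENSMUSG00000029231.15, chromosome 5, 75152292 to 75198215, plus strand), the receptor that binds all PDGF chains but PDGF-D homodimers with high affinity, was the most abundant of the 7 genes. Normalized counts in replicates 1, 2 and 3 were 47060.3, 43198 and 46512 after IC, and 46655, 54238 and 51498 after vehicle. Groups overlapped because vehicle replicate 1 lay below IC replicate 1. The means were 45589.9 ± 2090 and 50797 ± 3840, a change of -10.2% with a 95% interval of -19.3% to -0.158%. The log2 fold change was -0.16 ± 0.0784 (SE), the unadjusted DESeq2 p was 0.0467, and after adjustment p was 0.422 with DESeq2 and 0.583 with edgeR. Without vehicle replicate 1 it was -0.21 and its adjusted p 0.0496, and in the other 5 fits without 1 library the adjusted p was 0.521 to 0.844. Of the 10 fibroblast markers, 8 also had log2 fold changes below 0, with a median of -0.14, and Col3a1 and Lum were called lower. The part of the fibroblast content in the value of Pdgfra was not tested.

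The stretch of 250 bases before the start of transcription is shown for Pdgfd and Pdgfra, the 2 members with the lowest unadjusted p. Both come from RefSeq on GRCm38.p6 and read 5′ to 3′ on the plus strand, at chr9:6168236-6168485 for Pdgfd and chr5:75152001-75152250 for Pdgfra. Capitals mark matches to any of 5 motifs on either strand, which are the TATA box (TATAAA), the CCAAT box, the GC box (GGGCGG), the AP-1 site (TGANTCA) and the CArG box of serum response factor. Matches were made by sequence alone, whatever their distance from the start of transcription.
Pdgfd: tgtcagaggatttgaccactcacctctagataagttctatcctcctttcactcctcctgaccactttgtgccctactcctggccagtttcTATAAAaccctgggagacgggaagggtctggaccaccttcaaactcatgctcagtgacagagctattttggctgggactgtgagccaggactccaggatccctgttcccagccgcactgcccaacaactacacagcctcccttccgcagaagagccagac
Pdgfra: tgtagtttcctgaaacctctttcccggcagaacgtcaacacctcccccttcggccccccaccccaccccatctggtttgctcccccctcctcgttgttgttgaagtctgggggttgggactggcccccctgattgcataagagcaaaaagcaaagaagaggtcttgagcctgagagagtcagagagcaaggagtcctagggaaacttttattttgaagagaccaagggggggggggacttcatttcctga
The only match in either stretch was TATAAA upstream of Pdgfd, a motif found in 12.4% of 32841 RefSeq promoter stretches of this length. CCAAT was found in 33.9% of them, GGGCGG in 32.7%, TGANTCA in 6.75% and the CArG box in 1.47%. The stretch upstream of Pdgfd was 53.6% G and C, and that upstream of Pdgfra 54.4%. Among the other members with a RefSeq stretch, Pdgfc held 1 CArG box and the 2 starts of Pdgfa held 1 and 2 GGGCGG motifs.

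Pdgfrb (ENSMUSG00000024620.11, chromosome 18, 61045150 to 61085061, plus strand) encodes the receptor for PDGF-B and PDGF-D. It had 21741, 21636 and 21788 normalized counts in IC replicates 1, 2 and 3, and 18814, 20769 and 21371 in vehicle replicates 1, 2 and 3. All IC values lay above all vehicle values. The means were 21722 ± 77.7 and 20318 ± 1337, and the log2 fold change was 0.10 ± 0.0742 (SE). Adjusted p was 0.730 with DESeq2 and 0.773 with edgeR, and the 95% interval ran from -3.33% to 18.3%. The IC libraries were closer to each other (SD 0.358% of the mean) than counting error alone gives (0.681%), whereas the vehicle SD was 6.58%. Mural cell markers had a median log2 fold change of -0.33 with 8 of 10 genes below 0, and Myh11, a smooth muscle myosin gene, was called lower. The 2 above 0 were Cspg4 (0.08) and Kcnj8 (0.10), neither called. Rgs5, a pericyte marker of the same list, had 4.70 to 22.6 CPM after IC and 16.4 to 22.7 CPM after vehicle, and was not called. The part of mural cells in the value of Pdgfrb was not tested.

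Because Pdgfra and Pdgfrb lay on opposite sides of 0, their ratio within each library, which needs no scaling between libraries, was set out. Per kb of merged exon, Pdgfra was 1.18, 1.09 and 1.17 times Pdgfrb in IC replicates 1, 2 and 3, and 1.36, 1.43 and 1.32 times Pdgfrb in vehicle replicates 1, 2 and 3. The groups did not overlap, with means of 1.15 ± 0.0490 and 1.37 ± 0.0560 (SD, n = 3 each). In an exact permutation test 3 libraries against 3 cannot reach a p below 0.1, and no test was made. Of the 21 pairs of members, 4 had count ratios that did not overlap between groups, against 18.1% of all pairs of 13432 genes with a mean of at least 100, so that the number of such pairs was near the background. These were Pdgfra over Pdgfrb, Pdgfd over Pdgfrb, Pdgfd over Pdgfra and Pdgfd over Pdgfrl, all lower after IC. The pairs share genes and are not independent. Pdgfd over Pdgfrb had the largest difference, -0.46 on the log2 scale, with ratios of 0.0450 to 0.0477 after IC and 0.0605 to 0.0679 after vehicle.

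**Figure D4:**
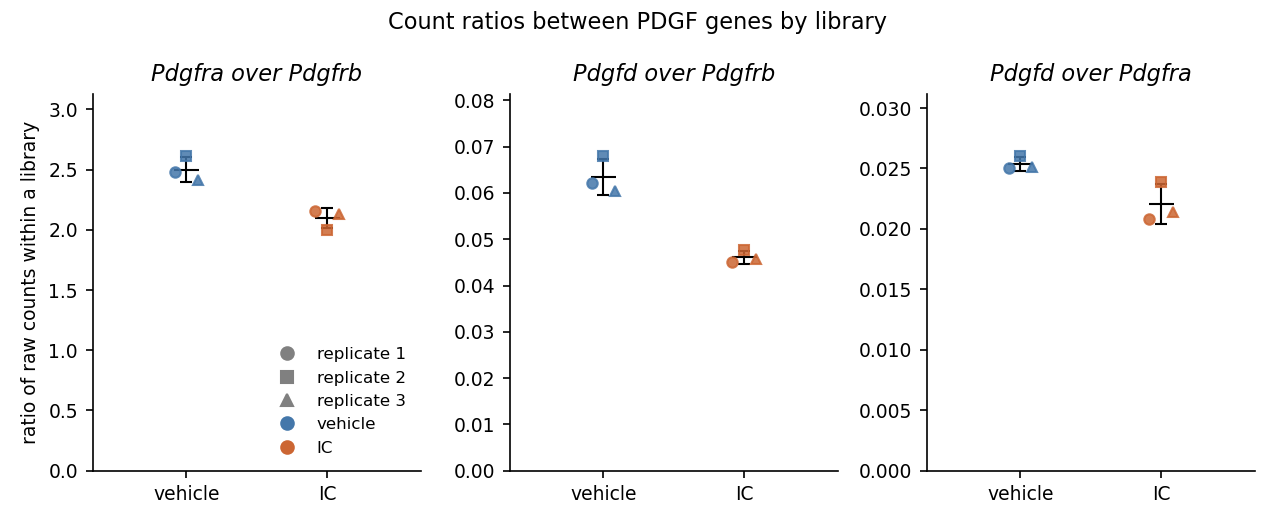
Ratio of raw counts between PDGF genes within each library, on linear axes from 0, with no division by length. Points are libraries and bars the mean ± SD of 3. The 3 panels were taken from the 4 of 21 pairs whose ratios did not overlap between groups, so the lack of overlap follows from that choice. Of all pairs of genes with a mean of at least 100, 18.1% did not overlap.

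Pdgfb (ENSMUSG00000000489.7, chromosome 15, 79995874 to 80014977, minus strand), which encodes a ligand of both receptors, was the least abundant and the most variable. It had 181.8, 118.9 and 77.1 normalized counts in IC replicates 1, 2 and 3, and 172, 70.8 and 164 in vehicle replicates 1, 2 and 3. The spread within groups (SD 41.9% and 41.5% of the mean) exceeded counting error (9.30% and 9.02%), and the groups overlapped. The log2 fold change was -0.11 ± 0.416 (SE), at a DESeq2 adjusted p of 0.980, and its direction turned in 3 of the 6 fits without 1 library. Its 95% interval ran from -47.4% to 63.0% and so included a wide range of falls and rises. Endothelial markers had a median log2 fold change of -0.41, with 12 of 13 genes below 0, and Kdr, Cdh5 and Cldn5 were called lower. Schwann cell markers (6 genes) summed to 112, 53.2 and 30.9 CPM in IC replicates 1, 2 and 3, and to 90.0, 40.5 and 47.3 CPM in vehicle replicates 1, 2 and 3. The part of either cell type in the spread of Pdgfb was not tested.

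Pdgfa (ENSMUSG00000025856.15, chromosome 5, 138976014 to 138997370, minus strand) encodes a ligand of PDGFRα. Its normalized counts in replicates 1, 2 and 3 were 579.6, 600.5 and 599.5 after IC, and 698.6, 749.1 and 514 after vehicle. The IC libraries sat within the vehicle range. The log2 fold change was -0.14 ± 0.175 (SE), at a DESeq2 adjusted p of 0.883, with a 95% interval of -28.6% to 14.9%. The antisense gene 6330403L08Rik overlaps 813 exonic bases of Pdgfa (26.1% of its exons) and had 293 to 417 raw counts, against 423 to 852 for Pdgfa. Since the use of strand in counting is not given in the sources used here, reads of these 2 genes are uncertain.

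Pdgfc (ENSMUSG00000028019.9, chromosome 3, 81036416 to 81214040, plus strand), which encodes another ligand of PDGFRα, had 1217, 957.1 and 1308 normalized counts in IC replicates 1, 2 and 3, and 1150.4, 1122 and 1092 in vehicle replicates 1, 2 and 3. The IC libraries spread on both sides of the vehicle libraries. The log2 fold change was 0.05 ± 0.141 (SE), at a DESeq2 adjusted p of 0.970, with a 95% interval of -14.5% to 25.4%. Pdgfrl (ENSMUSG00000031595.9, chromosome 8, 40926212 to 40990785, plus strand) had 1600.01, 1248 and 1263 after IC, and 1358, 1692 and 1489 after vehicle. These groups overlapped as well. Its log2 fold change was -0.14 ± 0.138 (SE), at a DESeq2 adjusted p of 0.835, with a 95% interval of -25.0% to 9.23%.

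The genes around the ligands and receptors were read from 7 lists of the pathway and its relatives, and mostly did not pass the test. Of 7 proteases that cut PDGF precursors, Pcsk5, a proprotein convertase gene, rose (log2 fold change 0.37, adjusted p 0.0264 by DESeq2 and 0.181 by edgeR), and the median of the list was 0.03. The share called, 14.3% against 2.10% of all tested genes, rests on this 1 gene. The call of Pcsk5 was lost with limma-voom (adjusted p 0.163) and with 1 surrogate variable (0.128), and passed in 2 of the 6 fits without 1 library (0.0152 to 0.213). Plat, which encodes the activator of PDGF-C, had a log2 fold change of 0.03, and Plau, which encodes urokinase, had 0.16, neither called. St14, which encodes matriptase, had 0.59 at a mean of 184 normalized counts and was not called. Pcsk6, another proprotein convertase gene, had -0.26 and was not called. Of 6 genes for proteins that bind PDGF or its receptors none was called. Thbs1, for thrombospondin 1, had the lowest p of these, at 0.23 on the log2 scale, and its DESeq2 adjusted p of 0.120 became 0.0124 without vehicle replicate 1. Among 29 genes of receptor signalling, Nras, a RAS GTPase gene, rose (0.29, adjusted p 0.0237 by DESeq2 and 0.178 by edgeR). This 1 call was a share of 3.45%, near the 2.10% of all tested genes. Of the 29 genes, 18 lay below 0, with a median of -0.06. The call of Nras was lost with limma-voom (adjusted p 0.146) and with 1 surrogate variable (0.0951), and passed in 2 of the 6 fits without 1 library (0.0012 to 0.156). Of 6 genes that switch the receptors off none was called, and Cblb, a ubiquitin ligase gene, had the lowest p (0.15, adjusted p 0.403).

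Growth factor-induced genes, which PDGF or serum raises in cultured fibroblasts, held the most calls. Of 17 genes, 5 rose (29.4%) against 1.03% of all tested genes, 12 were not called and none was called lower, with a median log2 fold change of 0.20. They were Cxcl1, Ier3, Ptgs2, Myc and Fosb. The list as a whole is no independent evidence, since it was chosen with earlier results of these data known. The study also named Cxcl1 on these samples. Ptgs2, the cyclooxygenase gene of inflammation, rose by 0.36 on the log2 scale (DESeq2 adjusted p 0.000708). Myc, a transcription factor of growth, had 0.32 and 0.0059, and 0.0834 without vehicle replicate 3. Fosb, a subunit of AP-1, had 0.28 and 0.0035. The classical early genes Fos (0.05) and Egr1 (-0.07) were not called, and both were abundant in all libraries, at means of 253049 and 194876 normalized counts. Fosb, which was called, had a higher mean than either, at 323914. None of the 5 was called by edgeR (adjusted p 0.0870 to 0.152) or limma-voom (0.0585 to 0.0957), and the list holds targets of many other signals.

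**Figure D5:**
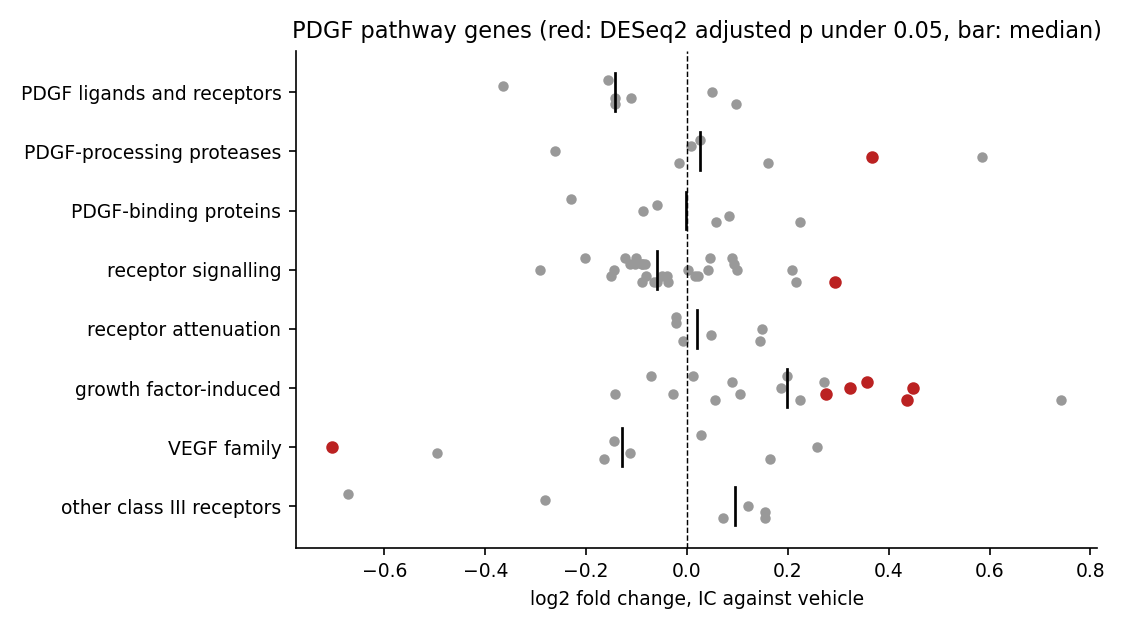
Log2 fold change, IC against vehicle, of every tested gene in the PDGF gene set and in 7 related lists. Each point is a gene, red where DESeq2 called it, and the bar is the median of the list. No ligand or receptor of PDGF is red, and 5 growth factor-induced genes are red to the right of 0.

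Among relatives of the PDGF genes, the VEGF ligands and receptors had 1 call in 8 tested genes. This share of 12.5%, against 2.10% of all tested genes, rests on 1 gene. Kdr, the main VEGF receptor of endothelium, fell with a log2 fold change of -0.70 (adjusted p 3.45e-05 by DESeq2 and 0.0537 by edgeR) and passed in all 6 fits without 1 library. Normalized counts of Kdr in replicates 1, 2 and 3 were 1631, 1264 and 1264 after IC and 2424, 2001 and 2342 after vehicle. Kdr is itself one of the endothelial markers, whose summed CPM overlapped between groups although 12 of 13 had log2 fold changes below 0, and the part of endothelial content in its value was not tested. The other class III receptor kinases and their ligands held no call in 6 tested genes, and Kit had the lowest p (-0.67, adjusted p 0.0534 by DESeq2 and 0.185 by edgeR). Kit passed with TMM factors (adjusted p 0.0496) and among genes of mean 100 or more (0.0443), and its adjusted p ran up to 0.229 over the other alternatives.

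The genes whose pattern was most like that of each member were named by Pearson correlation of log2(normalized count + 1) over the 6 libraries, among 13434 genes with a mean of at least 100. They included Ogn (r = 0.995) for Pdgfra, and were Mmp19 (0.997) and Lmf1 (0.995) for Pdgfrb, and Gbe1 (0.992) and Mpst (0.990) for Pdgfd. For Pdgfa they were Dek (0.986) and Gm25047 (0.985), for Pdgfb Srcap (0.994) and Arhgap39 (0.993), for Pdgfc Sec24b (0.985) and Rps12 (0.980), and for Pdgfrl Kctd20 (0.991) and Ndufa13 (0.990). With 6 points that share libraries, depth and scaling such values are a description. An r above 0.95 was reached by 103 genes for Pdgfra, 91 for Pdgfd, 50 for Pdgfrb and 9 to 27 for each of the others.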

How the data were processed

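RNA of 3 IC and 3 vehicle samples of sorted synovial fibroblasts was sequenced. The authors deposited unnormalized read counts for each gene, obtained with Trim Galore, HISAT2 (mm10) and featureCounts. Tool versions, annotation and strand setting are not given in the sources used here, and the labels and methods name different library kits. The methods also name sva for batch effects, with no batch given. Each sample's own file held the same 24348 counts as the combined table.

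Testing kept genes reaching 10 counts in 3 or more libraries and used the Wald test of DESeq2 (1.42.0, default size factors, treatment as the only term), as the study's methods name DESeq2, and with calls at 0.05 after Benjamini-Hochberg adjustment over the tested genes to which DESeq2 gave an adjusted p, which 3870 did not get. The quasi-likelihood test of edgeR (4.0.16) is given beside it. Normalized counts are counts divided by size factors, and fold changes are unshrunken. Libraries of a group differed by more than sampling noise (chi-square per degree of freedom 16.1 to 76.7). Lengths and coordinates came from GENCODE M21 (GRCm38, the assembly of mm10), matched by symbol for 98.0% of genes.

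The members and lists were chosen with earlier results of these data known. Named were all members, every called gene of each pathway list or its gene of lowest p, and the 2 genes most correlated with each member. A gene that this rule names is not reported here. Marker genes, Plat, Plau, St14, Pcsk6, Fos, Egr1 and 6330403L08Rik were named after their values were seen.

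The scripts were tested on simulated data, where the share of false calls was above the nominal threshold with both tools and higher with DESeq2 than with edgeR. Alternatives were edgeR, limma-voom (3.58.1), TMM factors, other filters, 1 surrogate variable (sva 3.50.0), the replicate number as a block and each library left out.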

Additional observations from a re-analysis of the deposited data

How the results depend on the processing

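The count of 419 called genes (205 higher, 214 lower) moved to 37 with edgeR's quasi-likelihood test (12 and 25) and to 62 with limma-voom (25 and 37), and ran from 281 to 677 over the 6 fits without 1 library, with 677 without vehicle replicate 1. It was 320 to 427 under TMM factors, without the count filter, with genes of mean 100 or more, without independent filtering, with 1 surrogate variable and with the replicate block. Libraries that share a replicate number did not deviate together (r = -0.0918, -0.164 and 0.025), so the numbers were not taken as pairs. With the replicate block 320 genes were called, 137 higher and 183 lower, 272 of them among the 419, no member was called, and Pcsk5 (adjusted p 0.0542) and Nras (0.127) were not. In no alternative that kept all 6 libraries was a member called, and all 7 kept their direction. Log2 fold changes without 1 library ran from -0.29 to -0.03 for Pdgfa, -0.47 to 0.15 for Pdgfb, -0.046 to 0.17 for Pdgfc, -0.43 to -0.29 for Pdgfd, -0.21 to -0.10 for Pdgfra, 0.04 to 0.13 for Pdgfrb and -0.27 to -0.05 for Pdgfrl. Pdgfb turned to higher without IC replicate 3 (0.15), vehicle replicate 1 (0.10) or vehicle replicate 3 (0.05), and Pdgfc to lower without IC replicate 3 (-0.046). Of these fits only those without vehicle replicate 1 called a member, Pdgfd (-0.43) and Pdgfra (-0.21), and the cause was not tested. The level of Pdgfra over that of Pdgfrb was 1.67 after IC and 1.98 after vehicle with the longest transcript as the length, and 2.10 and 2.50 with no division by length, which shifts both groups by construction. It ran from 1.13 to 1.18 after IC and from 1.34 to 1.39 after vehicle without 1 library. Among the called pathway genes, edgeR lost all 8 and limma-voom all but Kdr. Depth limits Pdgfb most, which had 75 to 210 raw counts per library.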
